A study of Homo sapiens with 8 samples.

Results

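Integrin and laminin genes were followed in 2D human intestinal epithelial cells (hIECs) under inflammatory cytokines, particulate matter and both. The members described are protein-coding genes with an integrin α (ITGA), integrin β (ITGB) or laminin α, β or γ (LAMA, LAMB, LAMC) symbol, 37 of the 60558 genes measured, with 18 integrin α, 8 integrin β and 11 laminin genes. With cytokines, ITGA11, a collagen receptor subunit, went from 23.1 ± 0.43 FPKM (mean ± SD, n = 2) in normal to 55.7 ± 0.27 in inflamed hIECs, while ITGA8, a receptor subunit of smooth muscle and mesenchymal cells, went from 39.3 ± 1.6 to 22.0 ± 0.69 FPKM. FPKM divides the fragments of a gene by the length of its transcripts and by the mapped fragments of the library, so levels can be set side by side between genes. It does not sum to the same total in each library (403354 to 468392 FPKM over all genes).

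RNA-seq covered 8 libraries in 4 groups of 2. All cells came from H9, a human embryonic stem cell line in wide use, by stepwise differentiation through definitive endoderm and hindgut. Normal hIECs received neither agent. Inflamed hIECs received the cytokines IFNγ and TNFα, each at 50 ng/ml, over 10 days, and normal and inflamed hIECs with PM10, a coarse particulate matter used here as a dust reference material, were exposed to 100 μg/ml over the final 7 days. The sample records state a treatment of 10 days for every group. All groups share 1 cell line and a Matrigel-coated surface. Matrigel is a basement membrane extract that itself holds laminin protein, and the values here are of the cells' own RNA. No source states that the 2 libraries of a group came from separate cultures, so p-values measure only the spread between these libraries.

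The labelled cell type was checked against marker genes. Of 15 epithelial markers, 8 were listed at 0 in all 8 libraries, among them VIL1, CDX2 and MUC2, and 11 were under 1 FPKM throughout, among them EPCAM and CDH1, while the keratins KRT8 and KRT18 were abundant. All 11 mesenchymal markers were detected, with a summed level of 3221 to 3934 FPKM. The defining epithelial markers therefore go against the label, and hIEC is used below only as the study's name for the cells. Summed epithelial markers were 644 to 654 FPKM in normal and 352 to 358 in inflamed hIECs. Nearly all of that sum was KRT8 (373 and 383 in normal, 210 and 220 in inflamed hIECs) and KRT18 (266 and 265, 141 and 126), while LGR5, a stem cell marker in the same list, went from 2.63 and 2.01 to 5.68 and 5.26 FPKM. Summed neuronal markers were 196 to 206 FPKM in normal and 116 in both inflamed libraries, and summed smooth muscle markers were 1573 to 1699 and 2441 to 2478 FPKM. With PM10 the epithelial sum was 601 to 638 FPKM in normal and 295 to 313 in inflamed hIECs, the mesenchymal sum 3621 to 3629 and 3221 to 3252 FPKM, the smooth muscle sum 1287 to 1312 and 2470 to 2493 FPKM, and the neuronal sum 215 to 223 and 129 to 132 FPKM. The part of these shifts in the results below was not tested, and in RNA from whole cultures fewer cells of a type cannot be told apart from less RNA per cell. The lowest value above 0 of each library was 0.164 to 0.228 FPKM. If it stands for a mean depth of 1 read per base, the libraries held 4.38 to 6.11 gigabases of aligned sequence. That depth was assumed and not measured. The mitochondrial share of all FPKM was 17.02% and 24.2% in normal hIECs and 15.5% to 20.4% elsewhere.

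Integrins are receptors made of an α and a β subunit that tie the cytoskeleton to the extracellular matrix, and the pairing decides which ligand is bound. Laminins are trimers of an α, a β and a γ chain and form, with type IV collagen, nidogen and perlecan, the sheet of the basement membrane. In the gut the epithelium rests on laminins through integrins that hold ITGA3 or ITGA6, while the fibroblasts and smooth muscle under it attach to collagen and fibronectin through other pairs.

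Stretches of 250 bases before a RefSeq transcript start are shown for 4 members of different roles, to set the gene-proximal sequence beside the values. ITGA11 and ITGB1 were higher and ITGA8 lower with cytokines, and LAMC1, a laminin γ chain, was higher. The sequences are RefSeq windows on GRCh38.p14, written 5′ to 3′ on the gene's own strand. For ITGA11, LAMC1 and ITGA8 they end at the start of the GENCODE 44 gene, whereas the ITGB1 window lies inside the longer GENCODE 44 gene (chr10:32887273-33005792). Capitals mark a match to the NF-kB motif.
ITGA11 (chr15:68432164-68432413, minus strand): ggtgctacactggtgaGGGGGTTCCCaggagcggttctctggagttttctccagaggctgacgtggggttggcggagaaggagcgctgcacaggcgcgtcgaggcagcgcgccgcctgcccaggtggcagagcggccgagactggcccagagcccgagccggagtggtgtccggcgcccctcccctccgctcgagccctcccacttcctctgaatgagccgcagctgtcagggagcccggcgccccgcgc
ITGB1 (chr10:32958231-32958480, minus strand): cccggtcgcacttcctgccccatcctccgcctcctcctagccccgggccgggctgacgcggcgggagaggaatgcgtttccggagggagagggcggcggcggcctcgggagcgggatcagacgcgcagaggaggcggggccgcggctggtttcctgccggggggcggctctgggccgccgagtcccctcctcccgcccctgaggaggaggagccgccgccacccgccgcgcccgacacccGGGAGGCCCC
LAMC1 (chr1:183023170-183023419, plus strand): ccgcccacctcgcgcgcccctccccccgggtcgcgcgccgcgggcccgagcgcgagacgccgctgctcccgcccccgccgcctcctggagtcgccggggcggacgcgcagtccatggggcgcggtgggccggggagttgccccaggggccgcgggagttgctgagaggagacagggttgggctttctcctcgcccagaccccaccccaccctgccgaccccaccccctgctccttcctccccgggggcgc
ITGA8 (chr10:15719923-15720172, minus strand): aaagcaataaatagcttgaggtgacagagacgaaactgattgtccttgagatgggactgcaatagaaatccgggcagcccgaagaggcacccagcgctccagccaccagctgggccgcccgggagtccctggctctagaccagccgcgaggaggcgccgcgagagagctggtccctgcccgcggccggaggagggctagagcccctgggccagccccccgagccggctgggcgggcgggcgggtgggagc
NF-kB and interferon-activated factors are known to act downstream of TNFα and IFNγ, and their motifs were searched on both strands. Windows were found for 17 of the 23 members expressed here, 22 windows in all. The NF-kB motif was in 4 of the 22 windows, those of ITGA1, ITGA11, ITGA5 and ITGB1, against 9.96% of all 35116 windows of the same length. In ITGA11 it began 234 bases and in ITGB1 10 bases before the RefSeq start. The interferon-gamma-activated site TTCNNNGAA was in 2 windows, those of ITGAE and LAMB2 (6.57% of all windows), a motif like the interferon-stimulated response element in 1 window of ITGB5 (3.02%) and the AP-1 site TGANTCA in none (6.57%). No window held more than 1 kind of motif. A match is a description of letters and not of a bound site. No window was available for ITGA3, ITGA7, ITGA9, ITGB3, LAMA1 and LAMC3, so these genes were not searched.

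Of the 37 genes, 28 were above 0 in at least 1 library and 23 reached 1 FPKM in at least 2 libraries, 15 integrins and 8 laminins. These 23 were the members tested. ITGA2 and LAMC3 passed this filter only through the 1 group in which each was highest, so their calls had to favour a difference. ITGB1, the common β1 subunit, was the most abundant member in normal hIECs and in inflamed hIECs with PM10, followed by LAMB1 in both. ITGA5, ITGA4 and ITGA8 came next in normal hIECs, whereas ITGA11, ITGA4 and ITGAV came next in inflamed hIECs with PM10. ITGA11 moved from rank 8 to rank 3 of the 37 and ITGA8 from rank 5 to rank 12. Another 9 members were listed at 0 in all libraries: ITGAD, ITGAL, ITGAM, ITGAX, ITGB7 (integrins of leukocytes), ITGB4 and ITGB6 (epithelial β subunits), LAMA3 and LAMB4. The remaining 5, ITGA10, ITGA2B, ITGB2, ITGB8 and LAMB3, did not exceed 1.07 FPKM in any library and were not tested. In all, 23 of the 37 share exon bases with another annotated gene, whose reads these libraries without strand information may split between them. For ITGA7, BLOC1S1 (up to 63.6 FPKM) covers 1.31% of the exon bases, for LAMA5, ADRM1 (up to 93.2 FPKM) covers 1.71%, and for ITGA1, PELO covers 2.69%. LAMC1, ITGA11, ITGA8 and ITGA3 have no such overlap.

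**Figure D1:**
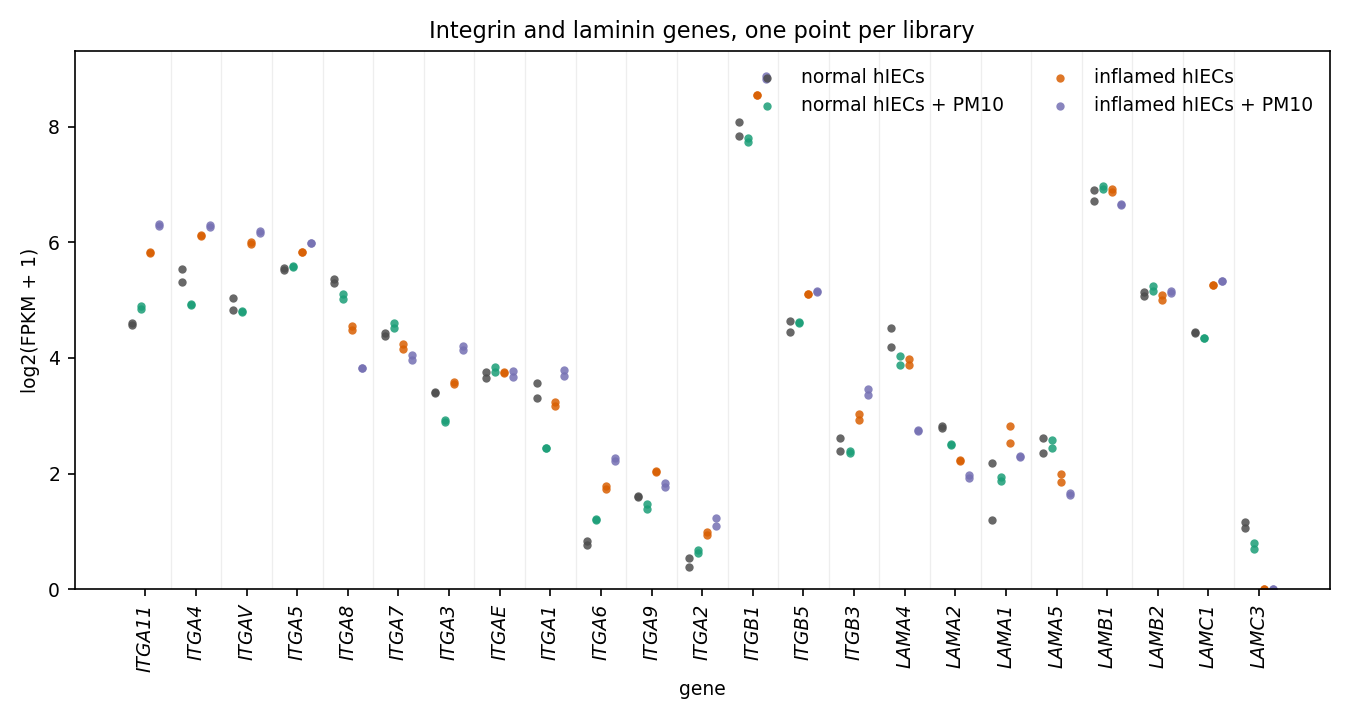
Level of the 23 tested integrin and laminin genes in each library, with log2(FPKM + 1) on the vertical axis, genes on the horizontal axis and 1 coloured point per library (2 per group). ITGB1 and LAMB1 are the highest, and ITGA8 goes down from 40.4 FPKM in the highest normal library to 13.3 in the inflamed libraries with PM10.

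Members changed with cytokines in both directions. Without PM10, limma called 19 of the 23 tested members at an adjusted p under 0.05, 13 higher and 6 lower in inflamed hIECs. Over all 14206 genes tested, 56.2% were called, 25.9% higher and 30.3% lower. With PM10 on both sides, 20 members were called, 13 higher and 7 lower, against 65.4% of all genes (25.8% higher, 39.6% lower). Without ITGA2 and LAMC3, 17 of 21 members were called without PM10 (12 higher, 5 lower) and 18 of 21 with it (12 higher, 6 lower). The median log2 change of the members was 0.30 without and 0.40 with PM10, and that of all genes -0.03 and -0.11. These comparisons share no library. Of the 23 members, 20 had the same sign in both (87.0%, against 85.6% of all genes), and the 18 called in both had the same sign in each. Of all 14206 genes tested, 6936 were called in both, 6861 of them with the same sign. The 20 and the 18 include ITGA2 and LAMC3, which passed the filter only through 1 group.

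LAMC1, a widespread γ chain, lies at chr1:183023420-183145592. Its levels were 20.5 and 20.9 FPKM in normal hIECs, 19.3 in both libraries with PM10, 37.2 and 37.3 in inflamed hIECs and 39.4 and 39.2 with both. All inflamed libraries lay above all others, and the log2 differences were 0.82 ± 0.044 without PM10 (limma adjusted p = 5.99e-06) and 0.99 ± 0.044 with it (adjusted p = 1.69e-06). LAMC3 was 1.07 and 1.23 FPKM in normal hIECs, 0.622 and 0.735 with PM10 and listed at 0 in all 4 libraries with cytokines. No p is given for it, since it entered the test only through normal hIECs, where it was highest.

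Most laminin α chains were lower with cytokines. LAMA4, a chain of vessel, muscle and mesenchymal basement membranes and the most abundant α chain, was 17.2 and 21.9 FPKM in normal hIECs, 13.7 and 15.4 with PM10, 14.8 and 13.7 in inflamed hIECs and 5.70 in both libraries with both agents. It fell by 0.42 on the log2 scale without PM10 (SE 0.112, limma adjusted p = 0.0142) and by 1.22 with it (adjusted p = 6.06e-05). The first of these calls was lost without normal library 2 (adjusted p = 0.0502) or inflamed library 2 (adjusted p = 0.078). LAMA2, the chain known from muscle, was 5.94 and 6.08 FPKM in normal and 3.69 and 3.62 in inflamed hIECs, 4.66 and 4.71 in normal hIECs with PM10 and 2.91 and 2.77 in inflamed hIECs with PM10. Its groups did not overlap, and it fell by 0.59 and 0.57 on the log2 scale (adjusted p = 0.000165 and 0.000154). LAMA5, the broadly used epithelial α chain, was 4.12 and 5.12 FPKM in normal and 2.98 and 2.61 in inflamed hIECs, and 4.98 and 4.45 against 2.11 and 2.16 with PM10 (fell by 0.56 and 0.87 on the log2 scale, adjusted p = 0.00292 and 0.000254). LAMA1, an embryonic chain, was the exception. It was 1.28 and 3.52 FPKM in normal and 6.11 and 4.77 in inflamed hIECs, with the widest spread between normal libraries among the laminins on the log2 scale. Its rise of 1.00 ± 0.28 on the log2 scale (adjusted p = 0.0173) was lost without inflamed library 1 (adjusted p = 0.094) and in a fit of the 2 groups alone (adjusted p = 0.0526). It was 0.50 without normal library 1 and 1.49 without normal library 2. With PM10 LAMA1 was 2.65 and 2.83 FPKM in normal and 3.94 and 3.86 in inflamed hIECs, a difference that did not pass (adjusted p = 0.245).

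LAMB1, the main β chain, was 118 and 105 FPKM in normal hIECs, 124 and 121 with PM10, 120 and 116 in inflamed hIECs and 98.7 and 101 with both. The groups without PM10 overlapped, and with PM10 it fell by 0.30 on the log2 scale with cytokines (SE 0.063, limma adjusted p = 0.00432). LAMB2, the β chain of muscle and kidney basement membranes, stayed between 31.2 and 36.8 FPKM in all 8 libraries and passed in no comparison. LAMB3, which was too low to be tested, was 0.716 to 1.07 FPKM in the 4 libraries without cytokines and 0.259 to 0.479 in the 4 with them, which do not overlap. The summed α chains were 32.6 FPKM in normal hIECs and 14.6 in inflamed hIECs with PM10, and the summed β chains 146 and 134 FPKM. Within the α sum, LAMA4 was 60.1% on average in normal hIECs and 39.1% in inflamed hIECs with PM10, as a description with no test.

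**Figure D2:**
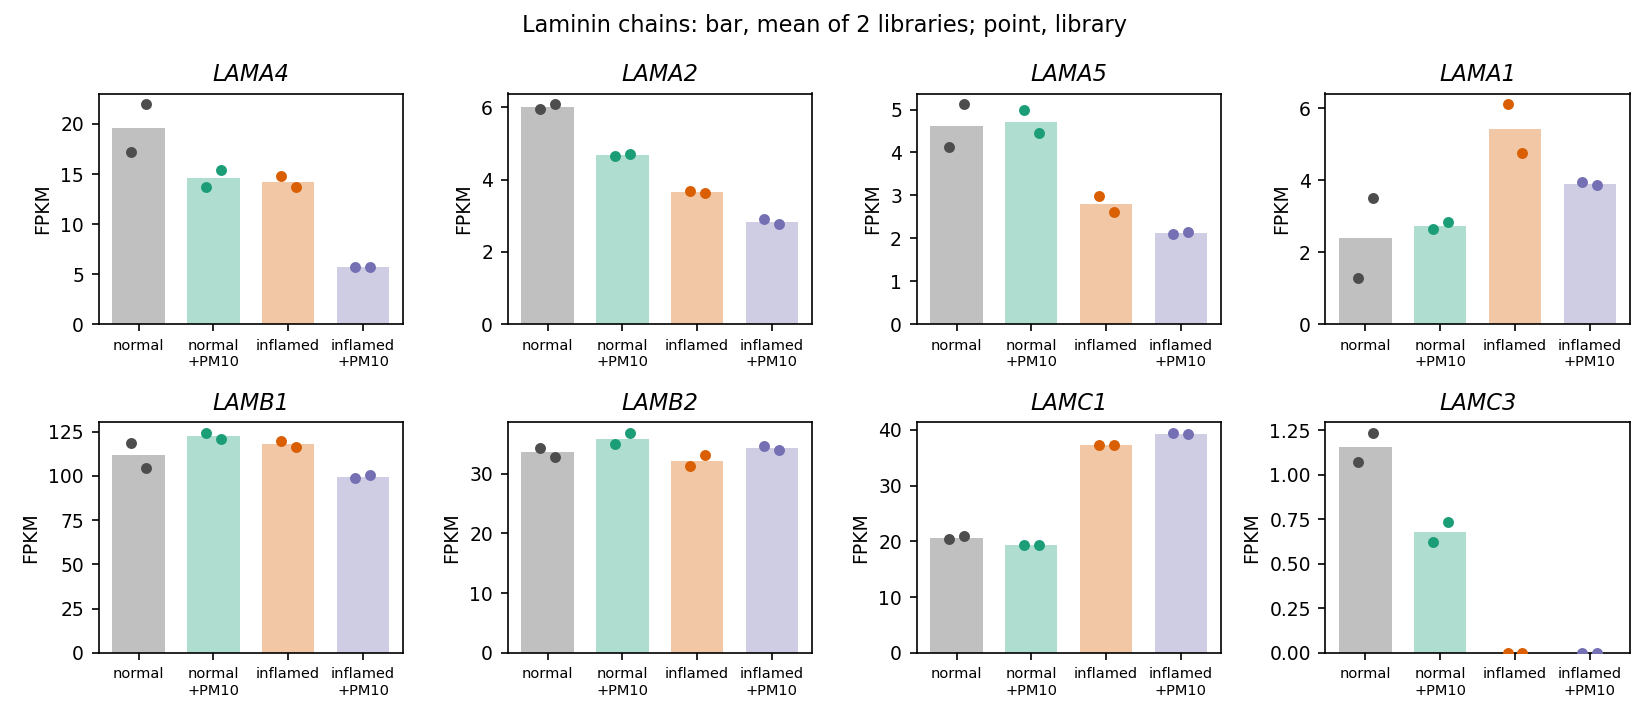
FPKM of the 8 tested laminin chains, with bars for the mean of 2 libraries, points for the libraries, and the 4 groups on the horizontal axis (each panel has its own vertical scale from 0). LAMC1 is higher with cytokines, LAMC3 is listed at 0 with cytokines, and LAMA4 is lowest with both agents at 5.70 FPKM.

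**Figure D3:**
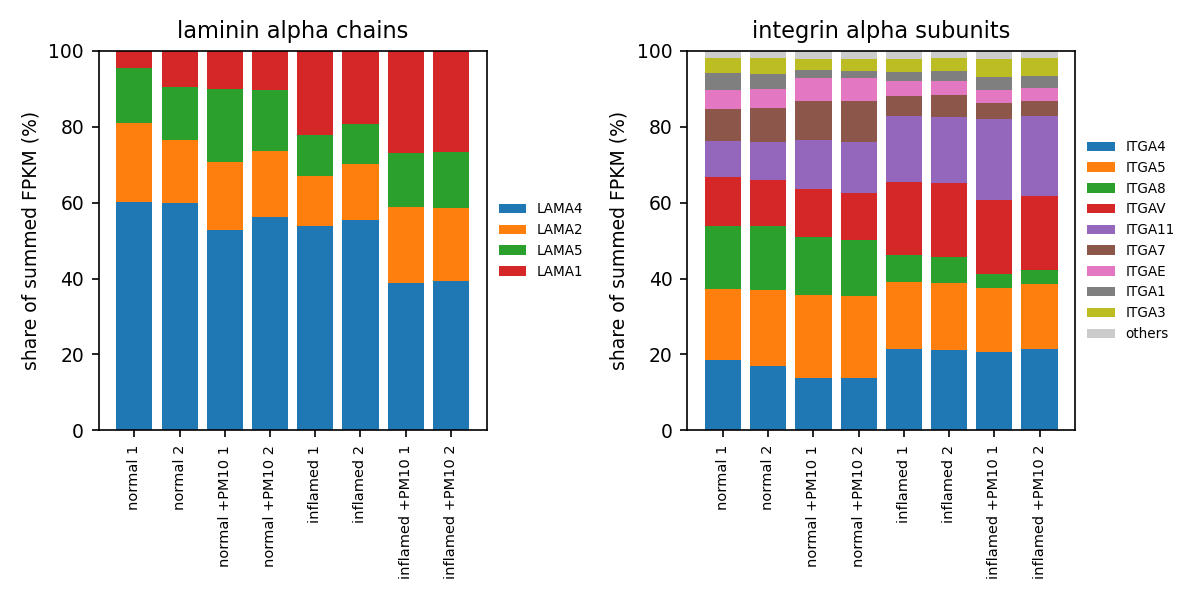
Share of each gene in the summed FPKM (percent, vertical axis) of the laminin α chains and integrin α subunits, with 1 stacked bar per library. LAMA4 takes 38.9% and 39.3% of the laminin α sum in inflamed hIECs with PM10, and ITGA11 takes 21.3% and 21.1% of the integrin α sum there.

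Among the integrins, ITGB1 pairs with most α subunits found here. Its values were 271 and 228 FPKM in normal hIECs, 223 and 213 with PM10, 372 and 373 in inflamed hIECs and 455 and 468 with both, and it made up 88.3% to 91.2% of the β subunit FPKM in every library. All inflamed libraries were above all others. The log2 difference was 0.58 ± 0.078 without PM10 (limma adjusted p = 0.000536) and 1.08 ± 0.078 with PM10 (adjusted p = 1.74e-05).

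Of the collagen-binding α subunits, ITGA11 rose with cytokines. ITGA11, a receptor for fibrillar collagen of fibroblasts (chr15:68296532-68432163), was 23.4 and 22.8 FPKM in normal hIECs, 27.8 and 28.7 with PM10, 55.5 and 55.9 in inflamed hIECs and 78.6 and 76.6 with both. Its 4 groups did not overlap, and the cytokine differences were 1.23 ± 0.045 (limma adjusted p = 8.38e-07) and 1.43 ± 0.045 (adjusted p = 3.36e-07) on the log2 scale. ITGA11 went from 9.82% of the α subunit FPKM in normal hIECs to 21.2% in inflamed hIECs with PM10. ITGA2, a collagen receptor of epithelia and platelets, was low throughout, with 0.446 and 0.299 FPKM in normal, 0.990 and 0.907 in inflamed, 0.599 and 0.549 in normal with PM10 and 1.34 and 1.13 in inflamed hIECs with PM10. No p is given for it, since it entered the test only through inflamed hIECs with PM10, where it was highest. ITGA1, a receptor for collagen IV and collagen I on smooth muscle and other mesenchymal cells, depended on PM10. It was 10.9 and 8.87 FPKM in normal and 8.38 and 7.96 in inflamed hIECs, which did not pass (adjusted p = 0.0588). With PM10 it was 4.45 and 4.42 in normal and 12.8 and 11.9 in inflamed hIECs, a log2 difference of 1.30 ± 0.093 (adjusted p = 1.7e-05).

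Of the laminin-binding subunits, ITGA3 and ITGA6 were higher and ITGA7 lower with cytokines. ITGA6, the partner of ITGB4 in hemidesmosomes and of ITGB1 elsewhere (ITGB4 was listed at 0), was 0.784 and 0.694 FPKM in normal, 1.29 and 1.32 in normal with PM10, 2.43 and 2.31 in inflamed and 3.82 and 3.65 in inflamed hIECs with PM10. The groups rose in that order without overlap, with cytokine differences of 0.95 and 1.04 on the log2 scale (SE 0.077, limma adjusted p = 4.45e-05 and 2.04e-05). ITGA3 was 9.54 and 9.70 FPKM in normal and 10.8 and 11.1 in inflamed hIECs, a difference of 0.17 (adjusted p = 0.0356) that was lost when any 1 library was left out (adjusted p up to 0.151). With PM10 ITGA3 was 6.45 and 6.59 in normal and 17.5 and 16.6 in inflamed hIECs, a difference of 1.27 ± 0.055 (adjusted p = 1.47e-06). ITGA7, the laminin receptor of muscle, was 20.5 and 19.8 FPKM in normal, 22.0 and 23.3 in normal with PM10, 16.7 and 17.9 in inflamed and 15.5 and 14.5 in inflamed hIECs with PM10. It fell by 0.21 without PM10 (adjusted p = 0.0219) and by 0.56 with it (adjusted p = 0.000146). The first call was lost without normal library 1 (adjusted p = 0.0695) or inflamed library 1 (adjusted p = 0.13). The sum of the laminin-binding α subunits was 30.5 FPKM in normal and 30.6 in inflamed hIECs, and 30.5 and 35.9 with PM10.

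Receptors for the RGD sequence of fibronectin and vitronectin moved in opposite directions. ITGAV was 31.8 and 27.4 FPKM in normal, 27.3 and 26.7 in normal with PM10, 61.9 and 63.2 in inflamed and 72.4 and 71.0 in inflamed hIECs with PM10 (log2 differences 1.06 and 1.38, limma adjusted p = 1.54e-05 and 3.04e-06). ITGA8, found on smooth muscle and mesenchymal cells (chr10:15513954-15719922), was 40.4 and 38.1 FPKM in normal, 33.5 and 31.5 in normal with PM10, 22.5 and 21.5 in inflamed and 13.3 in both inflamed libraries with PM10. It fell by 0.81 and by 1.23 on the log2 scale (SE 0.056, adjusted p = 2.05e-05 and 1.86e-06). ITGAV thus stood above ITGA8 in every inflamed library and below it in every normal library, with and without PM10. ITGA5, the main fibronectin receptor subunit, was 45.8 and 45.0 FPKM in normal and 56.3 in both inflamed libraries, and 47.2 and 46.8 against 62.5 and 62.2 with PM10 (0.30 and 0.40, adjusted p = 0.000612 and 0.000116). ITGA2B, the platelet subunit, was 0.462 to 0.548 FPKM without cytokines and listed at 0 in all 4 libraries with them.

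ITGB5 and ITGB3, β subunits that pair with ITGAV, rose as well. ITGB5 was 23.8 and 20.9 FPKM in normal and 33.5 and 33.4 in inflamed hIECs, and 23.3 and 23.6 against 34.6 and 34.1 with PM10 (0.56 and 0.53 on the log2 scale, limma adjusted p = 0.00026 and 0.000257). ITGB3, which shares 33.2% of its exon bases with another annotated gene listed at 0, was 5.16 and 4.25 FPKM in normal, 4.27 and 4.10 in normal with PM10, 7.12 and 6.57 in inflamed and 9.21 and 9.97 in inflamed hIECs with PM10 (0.46 and 1.03, adjusted p = 0.00375 and 5.02e-05). ITGB8, an activator of TGFβ with ITGAV, was 0.508 to 0.720 FPKM.

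ITGA4 and ITGA9, receptors for the cell adhesion molecule VCAM1 and, for ITGA9, tenascin C, were higher with cytokines. ITGA4 was 45.5 and 38.6 FPKM in normal, 29.7 and 29.4 in normal with PM10, 69.0 and 68.3 in inflamed and 76.2 and 77.6 in inflamed hIECs with PM10 (log2 differences 0.70 and 1.35, limma adjusted p = 0.000164 and 4.44e-06). CERKL on the opposite strand covers 26.4% of its exon bases and was at most 0.368 FPKM. ITGA9 was 2.04 and 2.03 FPKM in normal and 3.12 and 3.09 in inflamed hIECs, and 1.60 and 1.77 against 2.41 and 2.59 with PM10 (0.43 and 0.38, adjusted p = 0.00204 and 0.00302). ITGA9-AS1 on the opposite strand covers 9.23% of the ITGA9 exon bases and was at most 1.41 FPKM, not far below ITGA9. Its part in the ITGA9 values was not tested. Integrins of leukocytes were listed at 0 except ITGAE, which stayed between 11.6 and 13.4 FPKM and passed in no comparison, and ITGB2, which was 0.488 FPKM at most. ITGB7, the partner of ITGAE in intraepithelial lymphocytes, was listed at 0. Of 7 leukocyte markers, 4 were listed at 0 in all libraries. PTPRC, the pan-leukocyte marker, was 0.253 to 0.524 FPKM without cytokines and listed at 0 in all 4 libraries with them, and LCP1, an actin-bundling protein, was 0.398 to 0.613 and 3.18 to 6.27 FPKM. CD68, also in the list, was 0.503 and 0.510 FPKM in normal hIECs and 0.308 and 0 with PM10. It was 0.399 and 0.333 in inflamed hIECs and 1.11 and 1.83 with both agents. In the libraries with cytokines, LCP1 was the main part of the summed level of the 7 markers. This sum was 1.25 to 1.63 FPKM in normal hIECs and 0.866 to 1.11 with PM10. It was 3.58 to 3.62 in inflamed hIECs and 7.21 to 8.10 with both agents.

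**Figure D4:**
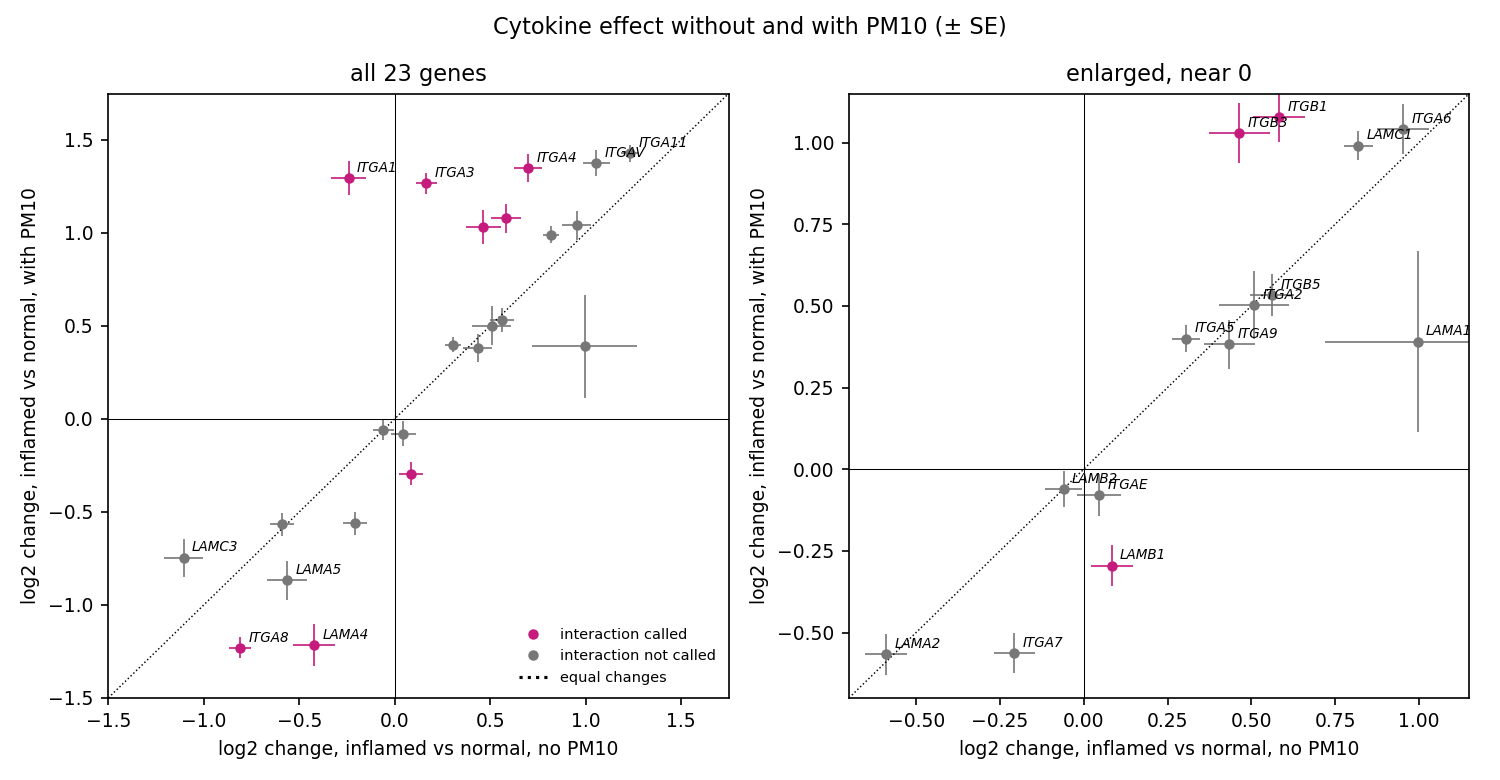
Log2 difference between inflamed and normal hIECs without PM10 (horizontal) and with PM10 (vertical) for the 23 tested genes, on log2(FPKM + 1) with ± SE bars, and an enlarged view on the right. ITGA11 is at the upper right with 1.23 and 1.43, and ITGA1 and ITGA3 lie far above the line of equal changes. The place of LAMC3, which is listed at 0 with cytokines, depends on the pseudocount.

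PM10 alone changed fewer members. In normal hIECs limma called 7 of the 23, against 9.23% of all genes tested (5.51% higher, 3.72% lower). ITGA11 and ITGA6 were higher with PM10, by 0.28 and 0.40 on the log2 scale (adjusted p = 0.0153 and 0.0242). ITGA1, ITGA3, ITGA4, ITGA8 and LAMA2 were lower, and ITGA1 changed most. It fell by 1.00 (SE 0.093, adjusted p = 0.00238), to 0.449 of its FPKM. ITGA3 fell by 0.50 and ITGA4 by 0.49 (adjusted p = 0.00409 and 0.0115), ITGA8 by 0.27 and LAMA2 by 0.30 (adjusted p = 0.0311 and 0.0294). The spread for these calls came from all 4 groups, and when normal hIECs with and without PM10 were fitted alone, 0 members and 23 genes in all were called. ITGA11, ITGA4, ITGA6, ITGA8 and LAMA2 also lost the call when either normal library with PM10 was left out, which left 2 called members, ITGA1 and ITGA3, in each case.

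In inflamed hIECs limma called 10 members with PM10, against 15.2% of all genes (6.22% higher, 9.02% lower). Of these, 6 were higher and 4 lower. ITGA3, ITGA1, ITGA6 and ITGA11 rose by 0.60, 0.54, 0.49 and 0.47 on the log2 scale (adjusted p = 0.00108, 0.0105, 0.00766 and 0.00127), ITGB3 by 0.43 and ITGB1 by 0.31 (adjusted p = 0.0218 and 0.0389). LAMA4 fell by 1.19 (SE 0.112, adjusted p = 0.00118), to 0.400 of its FPKM, and ITGA8 by 0.69 (adjusted p = 0.000663). LAMA2 and LAMB1 fell by 0.28 and 0.24 (adjusted p = 0.0268 and 0.0412). The calls of ITGA11, ITGA3, ITGA8 and LAMA4 held under every alternative run. Without inflamed library 1 or 2, or inflamed library 1 or 2 with PM10, the count was 5, 4, 4 and 6 in that order.

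The PM10 effect differed between inflamed and normal hIECs for 8 members in limma's interaction test, against 6.60% of all genes (2.11% higher, 4.48% lower). ITGA1 was lower with PM10 in normal hIECs and higher with PM10 in inflamed hIECs, a difference of 1.54 ± 0.13 on the log2 scale (adjusted p = 0.00173). ITGA3 did the same, with a difference of 1.10 ± 0.078 (adjusted p = 0.00133). These 2 were the members called in both PM10 comparisons with opposite signs, and their interaction calls held under every alternative that could be run. Of 4 tested smooth muscle markers, 3 (ACTA2, CNN1 and TAGLN) were likewise called lower with PM10 in normal hIECs and had a positive interaction (0.40, 0.48 and 0.29 on the log2 scale, adjusted p = 0.0259, 0.0238 and 0.048), while none was called with PM10 in inflamed hIECs. Of 11 tested mesenchymal markers, 1 was called higher and 7 lower with PM10 in inflamed hIECs (6.22% and 9.02% of all genes). Their interaction was called positive for 1 and negative for 5. The part of either marker list in these results was not tested. ITGA11, ITGA6, ITGA8 and LAMA2 were called in both PM10 comparisons with the same sign. Of all 14206 genes tested, 433 were called in both, 353 with the same sign and 80 with opposite signs. The other differences called were 0.65 for ITGA4, 0.49 for ITGB1, 0.57 for ITGB3, -0.42 for ITGA8, -0.79 for LAMA4 and -0.38 for LAMB1 (adjusted p from 0.0158 to 0.0496). Each of these 6 lost the call when any library other than the normal ones was left out. The LAMA4 call was also lost under median centring and quantile normalization (limma adjusted p = 0.056 and 0.064). Scaling to the FPKM without mitochondrial genes lost it too (limma adjusted p = 0.0539). The ITGB3 call was also lost without normal library 1 and with a pseudocount of 0.1, and the LAMB1 call with 0.1 and with 0.5. With no variance trend and with the replicate block, the calls of ITGB1, ITGB3 and LAMB1 were lost. With no filter on low values, these and the LAMA4 call were lost. Over all 23 members, 10 had the same sign in both PM10 comparisons (43.5%, against 60.4% of all genes). LAMC3 had a change of 0 in inflamed hIECs and so no sign there. Such genes count as not the same in both shares.

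**Figure D5:**
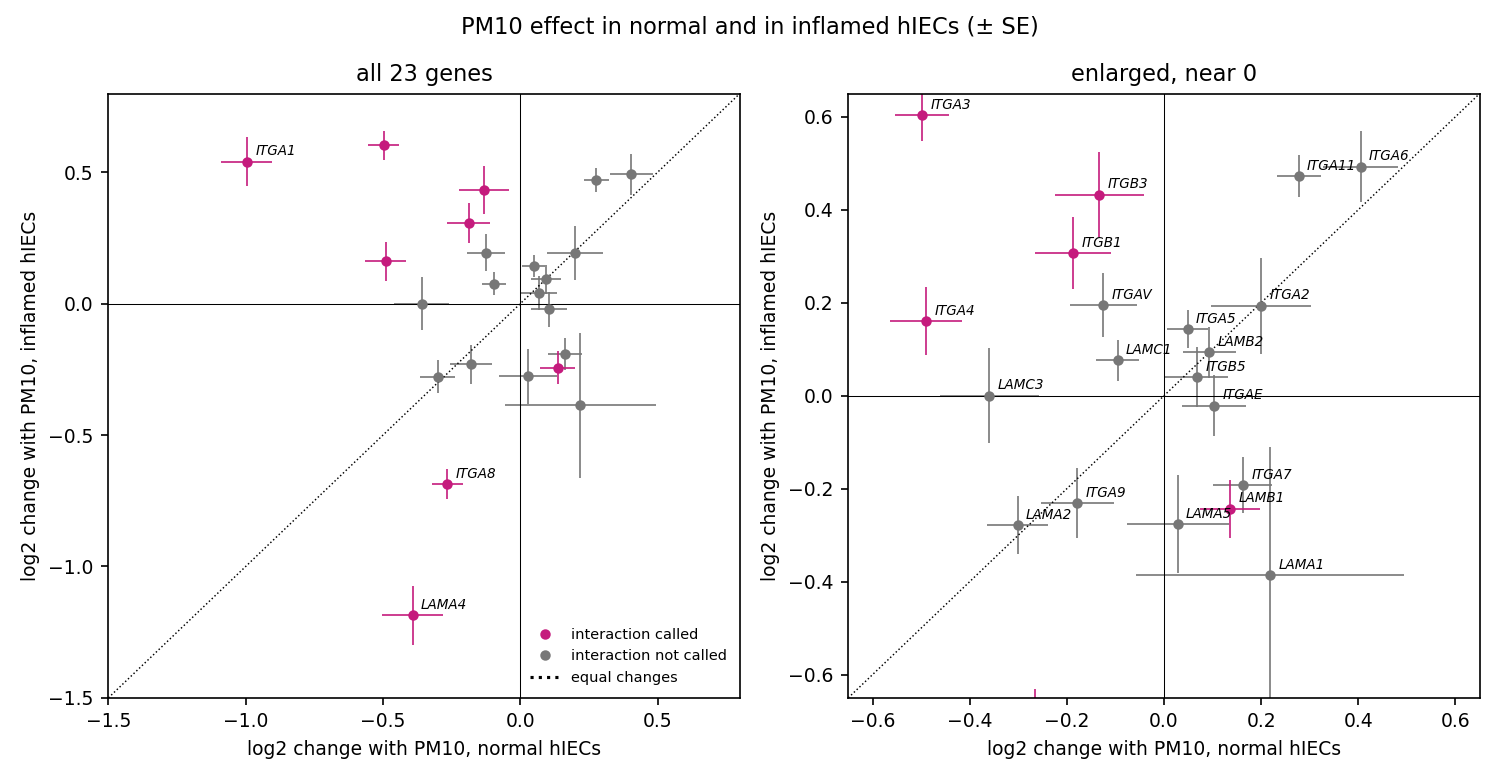
Log2 difference with PM10 in normal hIECs (horizontal) and in inflamed hIECs (vertical) for the 23 tested genes, on log2(FPKM + 1) with ± SE bars, and an enlarged view on the right. ITGA1 and ITGA3 lie at the upper left (lower with PM10 in normal and higher in inflamed hIECs, by 0.54 and 0.60), ITGA6 and ITGA11 at the upper right and LAMA4 at the lower left.

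Genes that work with these receptors and chains were counted from written lists. Of 13 tested basement membrane partners, 4 were higher and 6 lower in inflamed hIECs without PM10, with a median log2 change of -0.13. For this and the next lists, the shares over all genes are the 25.9% higher and 30.3% lower given above without PM10, and 25.8% and 39.6% with it. COL4A1 and COL4A2, the main collagen IV chains, rose together. COL4A1 went from 134 and 114 to 313 and 321 FPKM (limma adjusted p = 6.52e-06) and COL4A2 from 136 in both normal libraries to 336 and 348 FPKM (adjusted p = 4.65e-07). COL4A6, a minor collagen IV chain among the 6 lower, was 1.87 and 1.91 FPKM in normal and 0.248 and 0.325 in inflamed hIECs. No p is given for it, since it reached 1 FPKM only in libraries without cytokines, where it was highest. NTN4, the laminin-related netrin 4, fell by 1.13 (adjusted p = 8.02e-05). COL4A1 and COL4A2 fell with PM10 in normal hIECs by 0.65 and 0.51 (adjusted p = 0.0046 and 0.0017), and their interaction of 0.83 and 0.78 passed (adjusted p = 0.007 and 0.00166).

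Of 21 tested integrin adaptors, which link β subunits to actin, 13 were higher and 2 lower with cytokines without PM10 (median 0.34), and 13 and 4 with PM10 on both sides. ILK, LIMS1 and TLN2, parts of the kinase and talin links, rose by 0.61, 0.60 and 0.68 (limma adjusted p = 9.09e-05, 0.000122 and 0.0012), and the tensin TNS2 fell by 0.79 (adjusted p = 2.39e-05). Among 9 tested hemidesmosome partners and non-integrin laminin receptors, 4 were higher and 2 lower, 6 in all against 56.2% of all genes tested. The syndecans SDC4 and SDC1 rose by 1.46 and 0.78 (adjusted p = 1.04e-06 and 6.03e-05) and the plectin gene PLEC by 0.58 (adjusted p = 0.0052), while the LAMA5 receptor BCAM fell by 0.77 (adjusted p = 0.000479).

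Other integrin ligands gave 12 higher and 6 lower of 20 tested without PM10, and 14 and 5 with it. ICAM1, the ligand of leukocyte integrins, went from 2.17 and 2.04 FPKM in normal to 77.3 and 78.2 in inflamed hIECs (4.66 on the log2 scale, limma adjusted p = 5.51e-09), in libraries in which ITGAL, ITGAM and ITGAX were listed at 0. TNC, tenascin C, a ligand of ITGA9, rose by 2.63 (adjusted p = 3.16e-08). NPNT, nephronectin, the ligand of ITGA8, fell by 1.86 (adjusted p = 2.67e-06), from 6.36 and 6.49 to 1.19 and 0.914 FPKM. TGFB3 fell by 1.68 (adjusted p = 2.3e-05). With PM10 alone in normal hIECs, the 4 lists gave 1, 3, 0 and 5 higher and 4, 0, 0 and 4 lower genes in the order above, of 13, 21, 9 and 20 tested, against 5.51% higher and 3.72% lower of all genes. A fit of these 2 groups alone called 23 genes in all, as given above.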

How the data were processed

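RNA-seq of 8 libraries was analysed, 2 in each of 4 groups taken from the sample labels. Per the study's methods, RNA had an integrity number over 7.5, TruSeq libraries were sequenced as 2 × 100 bases, adapters were cut with Cutadapt 3.7, ends trimmed by Sickle 1.33 (Phred 20), reads shorter than 50 bases dropped, and HISAT2 2.2.1 (GRCh38) and StringTie 2.2.0 gave expression values. Which annotation release was used is not given in the sources used here. The authors deposited FPKM, not counts, so no count test was run and no counting interval is given. Precision at low levels is limited by the lowest value above 0 in a library.

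Members were compared as log2(FPKM + 1). limma 3.58.1 (R 4.3.3, variance trend) was fitted once to every library and to the 14206 genes that reached 1 FPKM or more in 2 or more libraries. P-values were adjusted by Benjamini-Hochberg in each of 5 comparisons, with 0.05 as the threshold. The fit was run on simulated data with independent noise and a small part of the genes changed. Those settings differ from these libraries, so the run does not check the calls given here. Members with a mean of at least 1 FPKM in some group are named, and from each other list up to 4 genes with the largest called change in inflamed against normal hIECs. Members, lists and markers were chosen with earlier results of these data known, and naming LAMB3, ITGB8, ITGA2B, the genes at 0 and single marker genes was decided with their values in view. Positions and exon overlaps come from GENCODE 44, which holds 37 of the 37 members described. 1 of the 38 genes that fit the symbol rule is not reported here. Alternatives were other pseudocounts, filters and scalings, no trend, 2-group fits, protein-coding genes alone, a replicate block, and leaving out single libraries. Scaling to the FPKM without mitochondrial genes was chosen after seeing the data. Python 3.11.15 with pandas 2.3.3 and matplotlib 3.10.9 was used for summaries and plots.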

Additional observations from a re-analysis of the deposited data

Results flagged for a closer look

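The test of the difference itself called 8 members for a response to PM10 that was not equal in inflamed and normal hIECs. Of all genes tested, 6.60% were called (2.11% higher, 4.48% lower). On the log2(FPKM + 1) scale, the effect in inflamed minus that in normal hIECs was 1.54 for ITGA1 and 1.10 for ITGA3, with limma adjusted p of 0.00173 and 0.00133, and each of these genes was lower with PM10 in normal hIECs and higher in inflamed hIECs in every pair of libraries. ITGA4, ITGB1 and ITGB3 had differences of 0.65, 0.49 and 0.57 (adjusted p = 0.0158, 0.0429 and 0.0462). ITGA8, LAMA4 and LAMB1 had differences of -0.42, -0.79 and -0.38 (adjusted p = 0.0271, 0.0314 and 0.0496). The calls of ITGA4, ITGB1, ITGB3, ITGA8, LAMA4 and LAMB1 were each lost when any library other than the normal ones was left out. Those of ITGA1 and ITGA3 were kept.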

How the results depend on the processing

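Over 19 alternatives, none of the 80 member differences followed (those with an unadjusted p under 0.05) changed sign, and 41 of the 64 called kept their call under all that gave a value. By comparison these were 0 of 7 (PM10 in normal hIECs), 15 of 19 and all 20 (cytokines without and with PM10), 4 of 10 (PM10 in inflamed hIECs) and 2 of 8 (interaction). For PM10 in normal hIECs, a fit of only the 2 groups called 0 members, and leaving out 1 library gave 2 to 9, with 4 without either inflamed library with PM10. For PM10 in inflamed hIECs leaving out 1 library gave 4 to 13. For the interaction it gave 2 to 10, with 2 without any library other than the normal ones, 4 with no filter on low values (21400 genes tested) and 5 with no variance trend. Fewer libraries leave fewer degrees of freedom, and more genes enter the adjustment with no filter. The replicate numbers do not pair the libraries (correlations of the differences between replicates from -0.0015 to 0.079), and with the replicate block 7, 20, 20, 10 and 5 members were called, against 7, 19, 20, 10 and 8 without it. A fit of only the 2 groups compared gives no interaction. ITGA2 and LAMC3, whose cytokine calls are among those kept, were not tested at a mean of at least 2 FPKM. Of all genes called for PM10 in normal hIECs, 59.7% were higher, against 42.9% under median centring and 49.8% under quantile normalization. For the interaction 32.0% were higher, against 45.7% and 46.6%, and for PM10 in inflamed hIECs 40.8%, against 50.8% under quantile normalization. No scaling moved the median of all genes by over 0.1. An exact two-sided permutation test of 2 libraries against 2 cannot go below 0.333, so calls rest on the spread shared across genes and groups.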
